A study of Homo sapiens with 4 samples.

Results

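The miR-99/100 and miR-125 guide strands were described in 2 colorectal cancer cell lines and in the radioresistant lines derived from them. The guide strand is the arm of a miRNA hairpin that is loaded into the silencing complex. The 5 guide strands, hsa-miR-99a-5p, hsa-miR-99b-5p, hsa-miR-100-5p, hsa-miR-125a-5p and hsa-miR-125b-5p, were chosen by name, as the products of the 3 gene clusters that also encode let-7a, let-7c and let-7e. They are 5 of the 1474 miRNAs counted in at least 1 library, and all 5 were counted in each of the 4 libraries. The parental lines, HCT116 and RKO, are of human colorectal cancer and were not irradiated before sequencing. HCT116-R and RKO-R are the acquired radioresistant lines, grown from HCT116 and RKO through fractions of 4 Gy to a total of 40 Gy and then kept without irradiation for some weeks before RNA was taken. Each line was sequenced as 1 small RNA library, so no difference between lines has a replicate check. Each radioresistant line is 1 selected population, and selection by radiation cannot be told apart from drift during the added time in culture. Nor can it be told apart from any other difference between the parental and the radioresistant libraries.

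The miR-99/100 and miR-125 families are among the oldest animal miRNAs, and miR-125 is the vertebrate counterpart of lin-4, the first miRNA found in the nematode. A miRNA pairs with its target messengers mainly through its seed, the bases from position 2 to position 8, and lowers their stability and translation. In vertebrates, a miR-99/100 gene, a let-7 gene and a miR-125 gene usually lie in a row and are transcribed together from 1 host transcript. MiR-99/100 is known for targeting the kinase MTOR and the chromatin remodeller SMARCA5, which has a part in the response to DNA damage. MiR-125 is known for targeting LIN28 and regulators of the p53 pathway, and let-7 for repressing RAS genes and HMGA2.

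The mature sequences are shown because the families are defined by their seeds and because some members differ so little that a read can be hard to assign. They are given 5′ to 3′ with the seed in capitals, from RefSeq on GRCh38.p14.
miR-100-5p: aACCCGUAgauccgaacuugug
miR-99a-5p: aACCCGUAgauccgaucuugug
miR-99b-5p: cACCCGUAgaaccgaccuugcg
miR-125a-5p: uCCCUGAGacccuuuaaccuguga
miR-125b-5p: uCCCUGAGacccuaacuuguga
let-7a-5p: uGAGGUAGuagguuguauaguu
let-7c-5p: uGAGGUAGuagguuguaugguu
let-7e-5p: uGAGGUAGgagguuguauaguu
miR-125b-1-3p: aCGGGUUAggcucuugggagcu
miR-125b-2-3p: uCACAAGUcaggcucuugggac
The first 3 sequences share 1 seed, and miR-125a-5p and miR-125b-5p share another. MiR-100-5p and miR-99a-5p are identical at 21 of 22 bases and differ by A16U, with positions counted from the 5′ end of miR-100-5p. No other mature miRNA of the same length came within 2 substitutions of a member. MiR-99b-5p differs from miR-100-5p at 4 positions (A1C, U11A, A16C and U21C). MiR-125a-5p has 24 bases and miR-125b-5p has 22, and the pair shares the first 13 and the last 5. Let-7c-5p differs from let-7a-5p by A19G and let-7e-5p by U9G, counted in let-7a-5p. MiR-4319 has the miR-125 seed as well and was counted in none of the libraries. The 3p strands of miR-125b are printed because they, unlike the shared 5p strand, tell its 2 genes apart.

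The hairpins were placed on GRCh38, the build that the submitters' processing notes also name as hg38. On the minus strand of chromosome 11, MIR100 lies from 122152229 to 122152308, MIRLET7A2 from 122146522 to 122146593 and MIR125B1 from 122099757 to 122099844. All 3 lie in introns of the non-coding host gene MIR100HG and span 52552 bp. On the plus strand of chromosome 21, MIR99A lies from 16539089 to 16539169 and MIRLET7C from 16539828 to 16539911, and the 5p arm of MIR125B2 from 16590253 to 16590274. These lie in introns of the non-coding host gene MIR99AHG. On the plus strand of chromosome 19, MIR99B lies from 51692612 to 51692681, MIRLET7E from 51692786 to 51692864 and MIR125A from 51693254 to 51693339, within 728 bp. They lie in introns of the protein-coding gene SPACA6 and opposite an exon of the long non-coding RNA SPACA6P-AS. No annotated miRNA lies on the opposite strand of any of these 9 loci. Mature miR-125b-5p comes from both chromosome 11 and chromosome 21, so its counts belong to no single cluster.

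Between 6818497 and 7140460 counts were assigned to miRNAs per library. Levels are given as CPM, the counts scaled to a library total of 1000000, with 95% Wilson confidence intervals that cover counting error only. Every read is 1 short RNA of nearly the same length, so no length scaling applies. The libraries had adapters with unique molecular identifiers, and whether reads sharing an identifier were merged is not given in the sources used here. At 2 loci with miRNAs on both strands, the radioresistant libraries stood apart from the parental ones. The antisense miR-3529-3p held between 0.225% and 0.628% of its pair with miR-7-5p in the parental libraries and between 99.5% and 99.9% in the radioresistant ones. MiR-3184-3p, antisense to miR-423-5p, moved likewise. The members have no such antisense partner. Of the epithelial miRNAs, all 5 of 5 were counted in every library, and their summed level was 58276 CPM or more in the HCT116 libraries and 11260 CPM or less in the RKO libraries. Intestinal miR-192-5p and miR-194-5p were counted in every library, while miR-215-5p was at 0 in HCT116, RKO and RKO-R. The 4 mesenchymal miRNAs summed to between 7.14 CPM in RKO and 342 CPM in HCT116, the 7 of blood and immune cells to at most 47.8 CPM, the 3 of muscle to at most 1.76 CPM and liver miR-122-5p to at most 82.1 CPM. The part of these differences in the results on the members was not tested.

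MiR-100-5p was the most abundant member in every library. It reached 729548 counts in HCT116 (106921 CPM, 106689 to 107153) and 511895 in HCT116-R (75074 CPM, 74877 to 75273). The RKO library held 126185 (17672 CPM, 17576 to 17769) and the RKO-R library 150489 (21769 CPM, 21660 to 21878). It was thus the second most abundant of all miRNAs in HCT116, and its rank was 4 in HCT116-R, while it ranked 13 and 10 in the RKO libraries. Both HCT116 libraries lay above both RKO libraries, and none of the 4 intervals overlapped.

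MiR-99b-5p, the family member from chromosome 19, reached 128226 counts in HCT116 (18793 CPM, 18691 to 18895) and 119565 in HCT116-R (17535 CPM, 17437 to 17634). The RKO library held 88027 (12328 CPM, 12247 to 12409) and the RKO-R library 91144 (13184 CPM, 13099 to 13269). Its levels lay within a factor of 1.52, with the HCT116 libraries above the RKO libraries. MiR-99a-5p was the scarcest member of its seed family. It reached 558 counts in HCT116 (81.8 CPM, 75.3 to 88.9) and 529 in HCT116-R (77.6 CPM, 71.2 to 84.5). The RKO library held 1381 (193 CPM, 183 to 204) and the RKO-R library 1996 (289 CPM, 276 to 302). In contrast to miR-100-5p, both RKO libraries lay above both HCT116 libraries, and the intervals of HCT116 and HCT116-R overlapped.

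MiR-125b-5p reached 8139 counts in HCT116 (1193 CPM, 1167 to 1219) and 8698 in HCT116-R (1276 CPM, 1249 to 1303). The RKO library held 2123 (297 CPM, 285 to 310.2) and the RKO-R library 1197 (173 CPM, 164 to 183). As for miR-100-5p, the HCT116 libraries lay above the RKO libraries. MiR-125a-5p varied least over the parental lines. It reached 3301 counts in HCT116 (484 CPM, 468 to 501) and 3649 in HCT116-R (535 CPM, 518 to 553). The RKO library held 3462 (485 CPM, 469 to 501) and the RKO-R library 2449 (354 CPM, 341 to 369). The intervals of HCT116 and RKO overlapped, and RKO-R was the lowest library.

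**Figure D1:**
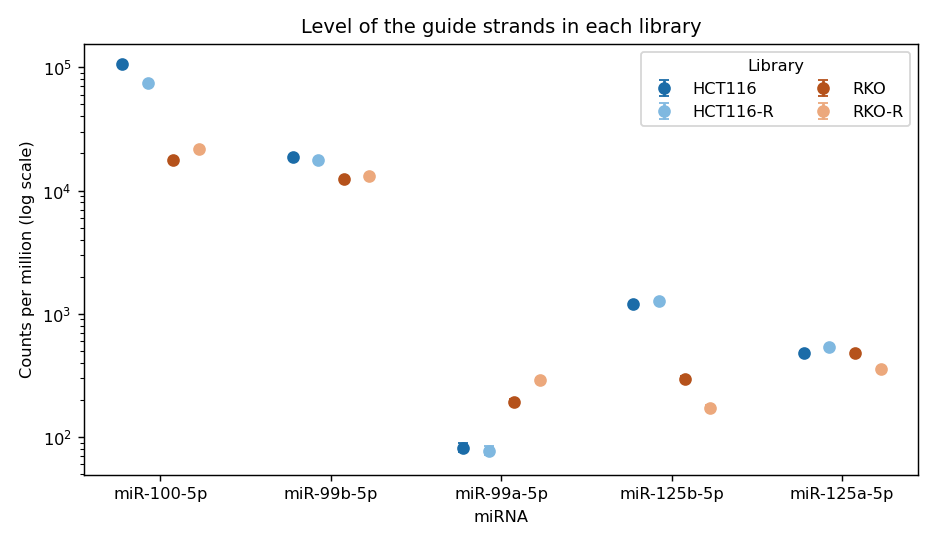
Level in CPM (log scale) of the 5 guide strands in the 4 libraries, 1 point per library, with 95% Wilson intervals that are mostly smaller than the points. MiR-100-5p and miR-125b-5p are higher in HCT116 and HCT116-R, miR-99a-5p is higher in RKO and RKO-R, and miR-99b-5p and miR-125a-5p are at similar levels in all 4 libraries.

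The make-up of both families differed between the cell lines. The miR-99/100 seed family held 12.6% of all HCT116 counts and 9.27% of all HCT116-R counts, against 3.02% for RKO and 3.52% for RKO-R. Within it, miR-100-5p made up 85.0% in HCT116 and 81.0% in HCT116-R, against 58.5% for RKO and 61.8% for RKO-R. MiR-99b-5p made up most of the rest, at 14.9%, 18.9%, 40.8% and 37.4% in the same order. MiR-99a-5p was at most 0.0837% of the family in the HCT116 libraries and at most 0.819% in the RKO libraries.

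The miR-125 seed family was far less abundant, at 1677 and 1811 CPM in HCT116 and HCT116-R, and at 782 and 527 CPM in the RKO libraries. MiR-125b-5p was its main member in HCT116 (71.1% of family counts) and HCT116-R (70.4%), and miR-125a-5p in RKO (62.0%) and RKO-R (67.2%). How efficiently each sequence is ligated and amplified also enters such shares, so they compare libraries rather than absolute amounts of the members.

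**Figure D2:**
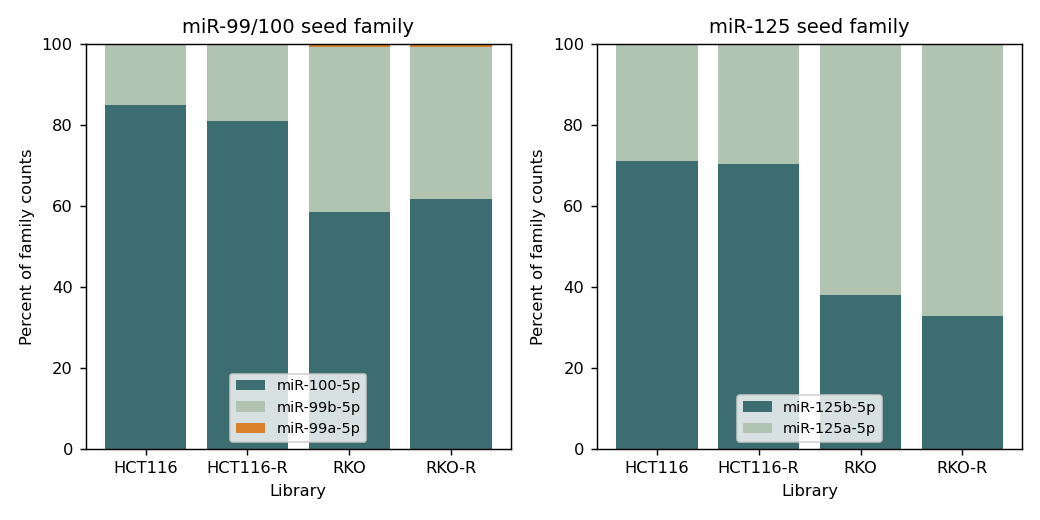
Share of each member in the counts of its seed family (percent, stacked bars from 0 to 100) in the 4 libraries. MiR-100-5p holds 81.0% or more of its family in the HCT116 libraries and 61.8% or less in the RKO libraries, and the main miR-125 member changes from miR-125b-5p to miR-125a-5p.

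To compare the cell lines, HCT116 and HCT116-R were set against RKO and RKO-R in a fit of all 4 libraries by edgeR's quasi-likelihood test, with radioresistance as a second factor and library sizes scaled by TMM, a trimmed mean of the log ratios between libraries. The radioresistant lines were derived from the parental ones, so the libraries of a lineage are not independent replicates. The fit had 1 residual degree of freedom. Its test and intervals used 6.62 in total, most of it borrowed by edgeR across all miRNAs fitted. Of 598 miRNAs tested, 28.3% had a Benjamini-Hochberg adjusted p under 0.05, and 22.1% were called as higher in the HCT116 lineage. Of the 5 members, 2 were called, both higher in the HCT116 lineage. The median log2 difference of the members was 0.41, against 0.19 for all miRNAs tested.

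MiR-100-5p was 4.25-fold higher in the HCT116 lineage (log2 difference 2.09, SE 0.49, adjusted p = 0.0224). MiR-125b-5p was 5.06-fold higher (log2 difference 2.34, SE 0.50, adjusted p = 0.0165). MiR-99a-5p differed in the opposite direction by a log2 difference of -1.67 (SE 0.55), which missed the threshold (adjusted p = 0.0701). By the edgeR exact test at an assumed spread it was called in the parental libraries alone (log2 difference -1.12, adjusted p = 0.0353), where 25.5% of 1289 miRNAs and 3 of the 5 members were called, and in the radioresistant libraries alone (-2.23, adjusted p = 3.7e-06), where 23.2% of 1333 miRNAs and 3 of the 5 members were. MiR-99b-5p (log2 difference 0.41, 95% interval -0.62 to 1.43, adjusted p = 0.554) and miR-125a-5p (0.19, -0.95 to 1.34, adjusted p = 0.830) were not called.

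The other products of the clusters were examined in the same fit, which called 28.3% of all miRNAs tested, and 22.1% as higher in the HCT116 lineage. From the chromosome 11 cluster, all 3 of 3 passenger strands, the arms that are mostly degraded, were higher in the HCT116 lineage with the guides miR-100-5p and miR-125b-5p. MiR-100-3p had 672, 610, 106 and 115 counts in HCT116, HCT116-R, RKO and RKO-R (log2 difference 2.47, SE 0.58, adjusted p = 0.0229). Let-7a-2-3p had 891, 842, 133 and 77 counts in the same order (log2 difference 3.03, SE 0.58, adjusted p = 0.0111). MiR-125b-1-3p had 2731, 2096, 397 and 182 counts (log2 difference 3.09, SE 0.55, adjusted p = 0.00927). For each of them, both HCT116 libraries were above both RKO libraries.

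Let-7a-5p, the guide between miR-100 and miR-125b-1, was not called. It had 249111, 252887, 246005 and 324916 counts in the order above (log2 difference -0.23, SE 0.44, adjusted p = 0.768). The same mature sequence is also encoded on other chromosomes, so it is not a measure of this cluster.

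From the chromosome 19 cluster, 1 of 6 products was called, beside 28.3% of all miRNAs tested. Let-7e-3p had 1510, 1109, 531 and 217 counts in HCT116, HCT116-R, RKO and RKO-R and was higher in the HCT116 lineage (log2 difference 1.87, SE 0.55, adjusted p = 0.0444), a call that was lost without TMM normalization (adjusted p = 0.0503) and with DESeq2 size factors (adjusted p = 0.0572). Its guide, let-7e-5p, lay between 2444 CPM in RKO and 2959 CPM in HCT116 and was not called (log2 difference 0.04, SE 0.44, adjusted p = 0.952). MiR-99b-3p (log2 difference 0.13, SE 0.49) and miR-125a-3p (0.22, SE 0.60) were not called either.

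From the chromosome 21 cluster, miR-99a-5p and let-7c-5p were the only products particular to it in this fit, and neither was called. MiR-99a-3p, let-7c-3p and miR-125b-2-3p, with at most 1 count in a library, were not in the fit. Let-7c-5p was counted 226 times in HCT116, 430 times in HCT116-R, 414 times for RKO and 1282 times for RKO-R (log2 difference -1.29, SE 0.58, adjusted p = 0.160). In the radioresistant libraries alone it was called by the edgeR exact test at the assumed spread (log2 difference -1.89, adjusted p = 0.000116), and in the parental libraries alone it was not. Its sign was that of miR-99a-5p, but HCT116-R and RKO were at similar levels, 63.1 CPM (57.4 to 69.3) and 58.0 CPM (52.7 to 63.8).

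**Figure D3:**
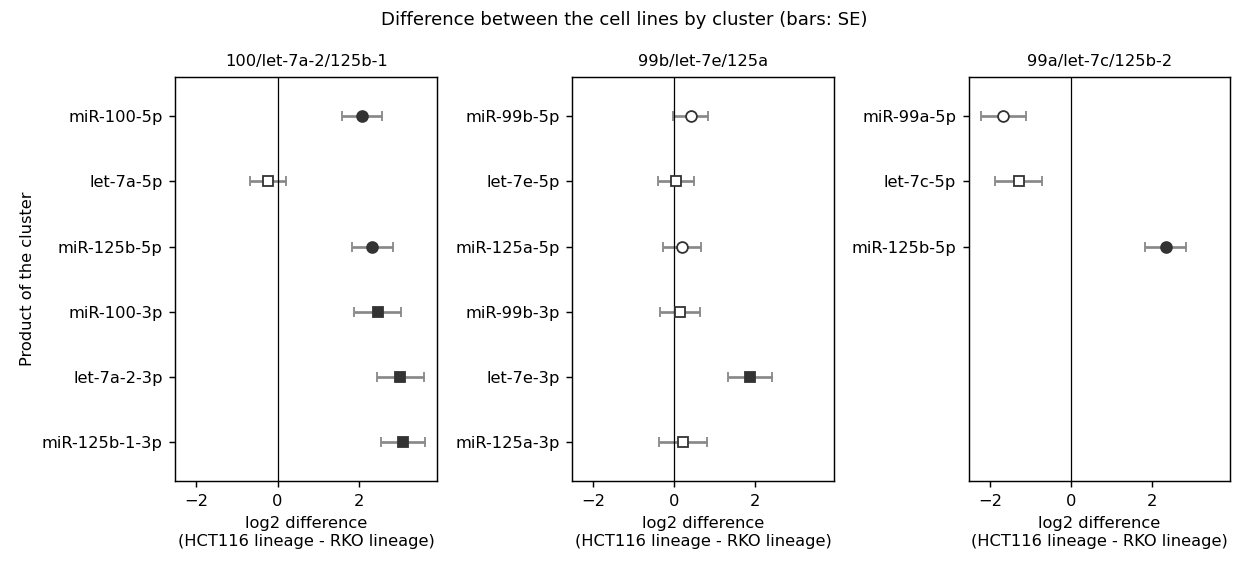
Log2 difference between the HCT116 and RKO lineages for the products of each cluster (circles, the 5 members; squares, other products; bars, SE; filled, adjusted p under 0.05 in edgeR's quasi-likelihood test). The products of the chromosome 11 cluster other than let-7a-5p lie between 2.09 and 3.09, those of chromosome 19 other than let-7e-3p lie near 0, and miR-99a-5p and let-7c-5p lie below 0. MiR-125b-5p is encoded in both the first and the third cluster and is drawn in both.

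The 3p strands gave a measure of which gene the miR-125b counts came with. MiR-125b-1-3p, from chromosome 11, had at least 182 counts in every library. MiR-125b-2-3p, from chromosome 21, had 1 count in RKO and 0 in the other 3 libraries, where 3 counts, or at most 0.440 CPM, are the limit that a count of 0 allows. MiR-99a-3p and let-7c-3p, the passenger strands beside it on chromosome 21, had 0 counts in all libraries and 1 count in RKO, respectively. The guide miR-99a-5p nevertheless had 1996 counts in RKO-R. The 3p strand of a hairpin can be rare for reasons of its own, and how much of each hairpin's 3p strand survives was not measured. These counts therefore do not assign miR-125b-5p to either gene.

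Because miR-99a-5p differs from miR-100-5p by 1 base, its counts were set against those of miR-100-5p. MiR-99a-5p was 0.0764% (0.0703 to 0.0830) of their sum in HCT116 and 0.103% (0.0948 to 0.112) in HCT116-R. The share was 1.08% (1.03 to 1.14) for RKO and 1.31% (1.25 to 1.37) for RKO-R. At the highest ratio seen in the HCT116 lineage, 0.103%, miR-100-5p would give 130.4 counts of miR-99a-5p in RKO and 156 in RKO-R. These would be 9.44% and 7.79% of the miR-99a-5p counts there. The counts of miR-99a-5p in the RKO libraries were thus above what that ratio gives. By construction the ratio accounts for all counts in HCT116-R, and how many reads were misassigned in any library was not tested. For let-7c-5p and let-7a-5p, which also differ by 1 base, the highest ratio in the HCT116 lineage was 0.170%. It would give 418 counts of let-7c-5p in RKO, where 414 were counted, and 552 in RKO-R, where 1282 were counted.

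The question of the study was which miRNAs differ between radioresistant and parental cells. Each pair was compared by the exact test of edgeR at the biological coefficient of variation (BCV) of 0.2 named in the methods, and the p-values rest on that assumed spread and compare libraries, not conditions. In the HCT116 pair, 4.01% of the 1322 miRNAs tested were called at an adjusted p under 0.05, and 0 of the 5 members. In the RKO pair, 5.54% of 1155 miRNAs were called, and again 0 of the 5 members. At an unadjusted p under 0.05, which 11.3% and 12.8% of all miRNAs had in the HCT116 and RKO pairs, the count of members was 0 in both. It was also 0 in both by the likelihood ratio test of edgeR, which called 4.92% and 8.05% of all miRNAs. In a fit of both pairs by edgeR's quasi-likelihood test with the line as a block, added after the other results were seen, 0.669% of 598 miRNAs and 0 of the 5 members were called. The members' log2 differences between radioresistant and parental libraries in that fit lay between -0.26 for miR-125b-5p and 0.33 for miR-99a-5p. An unadjusted p under 0.05 in that fit was found for 10 of all 598 miRNAs and for 0 of the 5 members.

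In the RKO pair, miR-99a-5p went from 193 to 289 CPM, a log2 fold change of 0.81 (95% interval 0.01 to 1.62, adjusted p = 0.390 by that test, unadjusted p = 0.0503). In the HCT116 pair its log2 fold change was -0.10 (-0.92 to 0.72). MiR-100-5p had log2 fold changes of -0.53 (-1.33 to 0.27, adjusted p = 0.857) in the HCT116 pair and 0.54 (-0.26 to 1.34, adjusted p = 0.765) in the RKO pair. In CPM this was a difference from 106921 to 75074 in the former, so the whole seed family went from 12.6% to 9.27% of the library.

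MiR-125b-5p had log2 fold changes of 0.07 (-0.73 to 0.88) in the HCT116 pair and -0.54 (-1.35 to 0.26, adjusted p = 0.765) in the RKO pair. MiR-99b-5p had -0.12 (-0.92 to 0.68) and 0.33 (-0.47 to 1.13). MiR-125a-5p had 0.12 (-0.68 to 0.93) and -0.22 (-1.02 to 0.59). Apart from that of miR-99a-5p in the RKO pair, the interval of every member included 0 in both pairs. The median over the members was -0.10 and 0.33 in the HCT116 and RKO pairs, against 0.07 and 0.02 over all miRNAs tested. The TMM factors of RKO and RKO-R were 1.09 and 0.921, and without them every log2 fold change of the RKO pair was lower by about 0.23, which turned the direction of no member. Over all miRNAs called in the RKO pair, the share with a log2 fold change above 0 was 45.3% of 64 with TMM and 27.0% of 74 without it. Over the calls of the interaction described next, the share above 0 was 45.7% with TMM and 30.9% without it.

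All 5 members had log2 fold changes of opposite sign in the 2 pairs. The share of all miRNAs with opposite signs was not counted, so this is not shown to be particular to the members. The difference itself was tested by a likelihood ratio test of the interaction at the same BCV. It called 4.75% of 1474 miRNAs and 0 of the 5 members. At an unadjusted p under 0.05 the count of members was 0, and the share of all miRNAs was not counted. The difference between the change in the RKO pair and the change in the HCT116 pair was 1.04 for miR-100-5p (SE 0.58, adjusted p = 0.414), 0.88 for miR-99a-5p (SE 0.59, adjusted p = 0.555) and -0.65 for miR-125b-5p (SE 0.58, adjusted p = 0.802). It was 0.42 for miR-99b-5p (SE 0.58) and -0.37 for miR-125a-5p (SE 0.58).

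Of the other cluster products, 0 of 9 were called in the HCT116 pair, where 4.01% of all miRNAs tested were. In the RKO pair, 5.54% of all miRNAs tested and 1 of 11 of these products were called. Let-7c-3p and miR-125b-2-3p, with 1 count in RKO and 0 in RKO-R, could not be called there. The product called was let-7c-5p, the neighbour of miR-99a on chromosome 21. It rose from 58.0 to 185 CPM in RKO-R (log2 fold change 1.91 with an SE of 0.42, edgeR's exact test, adjusted p = 0.000512). The call was lost at a BCV of 0.4 (adjusted p = 0.724), and also at an estimated BCV of 0.490 (adjusted p = 1). In the fit of both pairs with the line as a block, let-7c-5p was not called (log2 difference 1.38, SE 0.58, adjusted p = 0.998). In the HCT116 pair let-7c-5p had 33.1 and 63.1 CPM (log2 fold change 0.91, SE 0.42, adjusted p = 0.379). Let-7a-5p went from 34452 to 47000 CPM in the RKO pair, which was not called (log2 fold change 0.68, SE 0.41, adjusted p = 0.536). Let-7e-5p had log2 fold changes of -0.06 and 0.46 in the HCT116 and RKO pairs, beside -0.12 and 0.33 for its cluster neighbour miR-99b-5p. The ratio of miR-99b-5p to let-7e-5p counts stayed between 4.62 in RKO-R and 6.35 in HCT116, and that of miR-100-5p to miR-125b-5p ranged more widely, from 58.9 in HCT116-R to 125.7 in RKO-R.

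**Figure D4:**
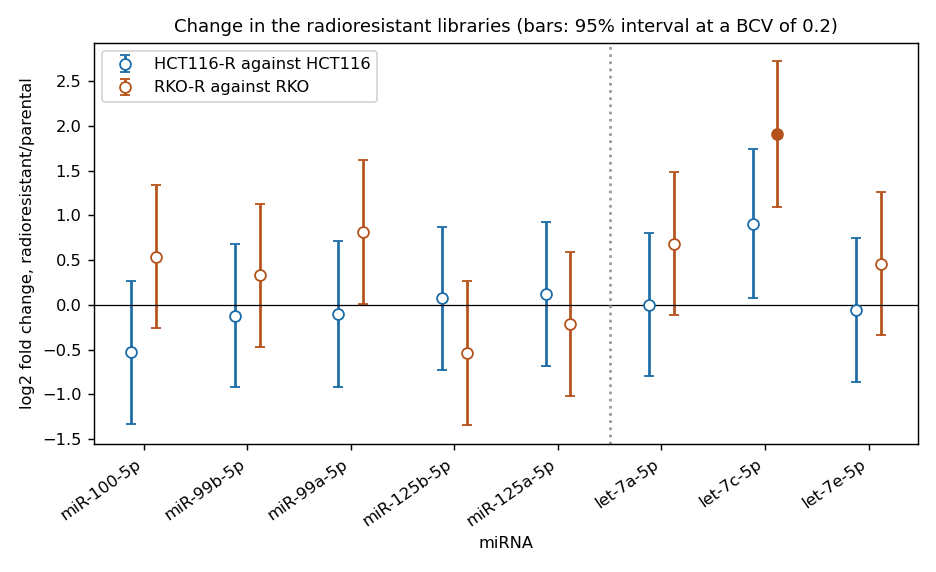
Log2 fold change of the 5 guide strands (left of the dotted line) and of the 3 let-7 guides of the same clusters (right) in HCT116-R against HCT116 and in RKO-R against RKO, with 95% intervals at a BCV of 0.2, and a filled point has an adjusted p under 0.05. Only let-7c-5p in the RKO pair, at 1.91, is filled, and the 5 members lie between -0.54 and 0.81.

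The use of the 2 arms was compared as the share of the 3p strand in the counts of both arms. For miR-100 it was between 0.0764% in RKO-R and 0.119% in HCT116-R. This was the lowest share among miR-100, miR-99b, miR-125a, miR-125b and let-7e. Let-7a-2-3p was also counted in every library, but its share was not computed, so the ranking leaves it out. For miR-99b the 3p share was 2.01% and 1.86% in the parental and radioresistant HCT116 libraries. It was 3.34% (3.23 to 3.46) for RKO and 1.62% (1.54 to 1.71) for RKO-R. MiR-99b-3p went from 3043 to 1505 counts in the RKO pair, which was not called (log2 fold change -0.73, SE 0.41, adjusted p = 0.485), while its guide had a log2 fold change of 0.33.

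For miR-125a the 3p share was 11.4% (10.4 to 12.4) in HCT116 and 5.20% (4.54 to 5.94) in HCT116-R, with 7.09% for RKO and 8.21% for RKO-R. MiR-125a-3p had 424 and 200 counts in the HCT116 pair (log2 fold change -1.10, SE 0.43, adjusted p = 0.186). For miR-125b, miR-125b-1-3p held 25.1% and 19.4% of the counts of all arms in the parental and radioresistant HCT116 libraries, and 15.7% and 13.2% in those of RKO. These counts include the 5p strand of both miR-125b genes, so the share is not that of 1 hairpin. For let-7e the share was 6.96%, 5.33%, 2.95% and 1.09% in the same order. In the HCT116 pair the 3p share was lower in the radioresistant library for let-7e, miR-125a and miR-125b and higher for miR-100, with intervals that did not overlap, while those of miR-99b overlapped. In the RKO pair it was lower for let-7e and miR-99b, and the intervals of miR-100, miR-125a and miR-125b overlapped. The intervals cover counting error only, and how many of all miRNAs with both arms had intervals that did not overlap was not counted. The differences are therefore not shown to be particular to these miRNAs and are descriptions of 1 library per line.

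**Figure D5:**
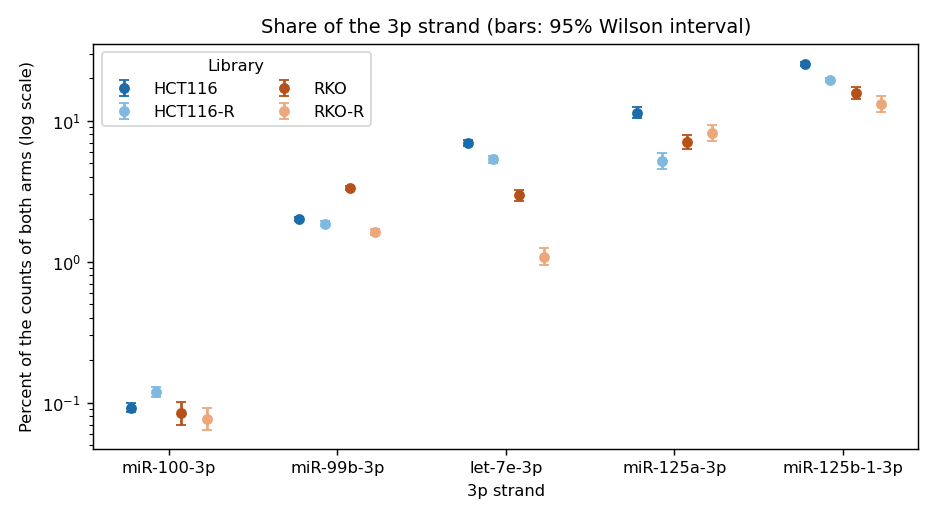
Share of the 3p strand in the counts of both arms (percent, log scale) for 5 miRNAs of the 3 clusters in the 4 libraries, with 95% Wilson intervals. For miR-125b-1-3p the whole is all arms of miR-125b, which includes the 5p strand of both its genes. The shares run from 0.0764% for miR-100-3p in RKO-R to 25.1% for miR-125b-1-3p in HCT116, and for miR-99b and let-7e the intervals of RKO and RKO-R do not overlap.

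The miRNAs with the most similar profile over the 4 libraries were found by the Euclidean distance of log2(CPM + 1) after the mean of each miRNA was subtracted, among 346 miRNAs with at least 100 counts in 1 library. With 4 libraries, many miRNAs lie close to each other, and the distances are a description. The nearest to miR-100-5p were miR-5001-3p (distance 0.21), miR-935 (0.37) and its own passenger strand miR-100-3p (0.42), against a median distance of 2.46. MiR-125b-5p and miR-100-5p ranked 20 in each other's lists, at a distance of 0.91, and the nearest to miR-125b-5p were miR-570-3p (0.14), miR-3150a-5p (0.26) and miR-1296-5p (0.32). MiR-99b-5p was closest to miR-203a-3p (0.17), miR-182-3p (0.17) and miR-651-5p (0.19), with miR-125a-5p of the same cluster at rank 34. MiR-125a-5p was closest to miR-3173-5p (0.12), miR-625-5p (0.15) and miR-191-5p (0.27). MiR-99a-5p was closest to let-7i-3p (0.34), miR-330-5p (0.38) and miR-212-3p (0.47), and miR-125b-5p and miR-100-5p were among the farther ones from it, at ranks 272 and 265 of its list.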

How the data were processed

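Total RNA of the 4 lines was size-selected to small RNA, ligated to adapters with unique molecular identifiers and sequenced on the BGISEQ-500 platform. Per library, the authors deposited 1 table of unnormalized read counts that lists mature miRNAs with at least 1 count, and a missing miRNA was set to 0. Bowtie2 and hg38 are named in the submitters' processing notes, and the counter, miRNA annotation, use of strand and merging of identifiers are not given in the sources used here. Library totals of 6818497 to 7140460 counts put the smallest measurable level, 3 counts, at 0.420 to 0.440 CPM.

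The members were looked up by name. Groups were taken from the sample titles and doses from the methods. Members and lists were chosen with earlier results of these data known. Named miRNAs were the 5 members, the 12 other products of the clusters, the 3 nearest profiles per member and miRNAs with a member's seed. The marker lists were epithelial, intestinal, blood and immune, mesenchymal, muscle and liver miRNAs.

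Tests used edgeR 4.0.16 in R 4.3.3 over all miRNAs, with TMM and Benjamini-Hochberg adjustment: the exact test at a BCV of 0.2 within each pair, the quasi-likelihood test on factors for line and radioresistance after edgeR's filter on low counts, and the likelihood ratio test of their interaction. Standard errors of the pair tests and of the interaction come from the counts and the assumed BCV, and that of the quasi-likelihood test from its F statistic. Intervals are 1.96 SE to each side, or for the quasi-likelihood test use the t distribution with 6.62 degrees of freedom. These are the total of the fit, residual and borrowed across miRNAs. Alternatives were other BCVs, scalings, filters and tests, each lineage comparison in parental or radioresistant libraries alone, DESeq2 1.42.0, and the sum of miR-99a-5p and miR-100-5p. Sequences and hairpins came from RefSeq (GRCh38.p14), which held a mature sequence for all 17 names, and host genes from GENCODE release 29.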

Additional observations from a re-analysis of the deposited data

How the results depend on the processing

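The labels number no replicates, so no replicate block could be fitted. Pairing each radioresistant line with its parent, with line as a block, gave 0 called members, as did each pair alone. Of 160 alternative log2 values of the members, 153 kept their direction and their side of the threshold, 6 passed it and 1 turned sign. Settings that changed only the BCV, the test within a pair or the p-value adjustment left the log2 value as it was. Their direction was thus fixed beforehand, and a larger BCV only makes a call harder. The count of 153 therefore overstates how far the values were put to the test. At a BCV of 0.1, 1 member was called in the RKO pair (miR-99a-5p, log2 fold change 0.81, adjusted p = 0.00180) and 2 in the interaction (miR-99a-5p, 0.88, and miR-100-5p, 1.04), against 0 and 0 as reported. That BCV called 12.8% of all miRNAs in the RKO pair and 12.1% in the interaction. MiR-99a-5p passed the threshold between the lineages in the parental libraries alone (-1.12), in the radioresistant libraries alone (-2.23) and with DESeq2 (-1.73). In each of these 3 settings, 3 members were called, against 2. Of all miRNAs, the parental libraries alone called 25.5% of 1289, the radioresistant ones 23.2% of 1333 and DESeq2 7.8% of 1474, against 28.3% of 598. Summed with miR-100-5p it turned to 2.07, because miR-100-5p holds nearly all counts of the sum. Over the 8 settings of that comparison, miR-100-5p lay between 1.45 and 2.72 and miR-125b-5p between 2.13 and 2.55, with adjusted p of at most 0.0385 and 0.0349.

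Of 288 values of the other cluster products, 9 turned sign (none of these was called), 12 passed the threshold and 4 lost it. Here too, settings that changed only the BCV, the test within a pair or the adjustment could not turn a sign. Those that passed were let-7c-5p between the lineages in the radioresistant libraries (-1.89), let-7c-5p (0.91) and miR-125a-3p (-1.10) in the HCT116 pair, each at a BCV of 0.1 and at unadjusted p, let-7e-3p in the RKO pair at both (-1.01), and at a BCV of 0.1 let-7a-5p (0.68), miR-125b-1-3p (-0.84) and miR-99b-3p (-0.73) in the RKO pair and let-7c-5p (0.97) and miR-125a-3p (1.09) in the interaction. Those that lost it were let-7c-5p in the RKO pair at BCVs of 0.4 and 0.490, and let-7e-3p between the lineages without TMM and with DESeq2 size factors. Those that turned sign were let-7a-5p in the HCT116 pair with a minimum of 10 counts (-0.0089) and between the lineages in the parental libraries (0.21), miR-125a-3p in the RKO pair without TMM (-0.22) and with DESeq2 size factors (-0.015) and between the lineages in the radioresistant libraries (-0.44), let-7e-5p between the lineages in the radioresistant libraries (-0.32), with DESeq2 (-0.0093) and with DESeq2 size factors (-0.052), and miR-99b-3p in the parental libraries (-0.016). The cause was not tested.

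The number of all miRNAs called depended on the assumed spread. At BCVs of 0.1 and 0.4 and at the estimated BCV of 0.490, 154, 24 and 13 were called in the HCT116 pair, against 53 at a BCV of 0.2. In the RKO pair, 148, 9 and 5 were called, against 64. In the interaction, 178 and 14 were called at BCVs of 0.1 and 0.4, against 70. Between the lineages, the exact test called 329 of 1289 in the parental and 309 of 1333 in the radioresistant libraries alone, where the filtered fit of all 4 libraries called 169 of 598, a change of test, filter and samples together. With 1 library per line, the spread within a line was not measured.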
